A study of Mus musculus with 12 samples.

Results

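The genes described here are 48 mouse genes that copy DNA (24 replication genes) or divide the copied chromosomes (24 mitosis genes), listed by symbol and found on the array through the RefSeq accession of a probe. The rule of choice used no measured value, but earlier results of these data were known when the list was made. A probe was matched for 47 of them, and these 47 (23 replication and 24 mitosis genes) were tested among 18959 genes in all. No expression value of Rrm2 is given here, but its promoter window is counted with the others. Each gene is represented by its brightest probe. Its signal is given as the scaled log2 signal, which is log2 of the processed intensity minus log2 of the 75th percentile of that array, so a difference of 1 is a doubling. Signals of different probes are not compared with each other.

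In late G1 phase the origin recognition complex, Cdc6 and Cdt1 load the ring of Mcm proteins onto DNA, and Cdc45 and the GINS complex turn that ring into the helicase that opens the double strand. Transcription factors of the E2F family, held back by Rb proteins until cyclins and their kinases act, drive many of these genes. The genes of mitosis are transcribed later in the cycle, largely through Foxm1, Mybl2 and the MuvB core, and their products build the spindle, attach chromosomes to it and trigger their separation. In healthy colon, dividing cells lie in the lower part of the crypt, and differentiated cells above them have left the cycle.

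Female BALB/c mice gave RNA of distal colorectal epithelium, collected on day 100 after the start, with 3 arrays in each of 4 groups. Their stated age of 5 to 7 weeks is less than 100 days, so it is not the age at collection. AOM/DSS mice received azoxymethane (AOM, an alkylating colon carcinogen) at 12.5 mg/kg into the peritoneum on day 1, and from day 5 dextran sulfate sodium (DSS, which injures the epithelium and causes colitis) in drinking water for 5 of every 21 days over 3 cycles. AOM mice received 10 mg/kg once a week, 6 times, and no DSS. DSS mice received the same 3 DSS cycles and no AOM, and control mice received neither agent. The labels name no genetic change in any group. The AOM/DSS samples are clipped neoplasms kept in RNA storage solution, whereas epithelium of the other groups was collected in Trizol by scraping, so neoplasm, dose, collection and storage cannot be told apart in comparisons with AOM/DSS. Scraped epithelium and clipped neoplasms both hold mixed cells, and in such bulk samples fewer dividing cells and less RNA per cell cannot be told apart. The labels do not say whether the 3 replicates are separate mice, so the p-values reflect the spread among these arrays alone, and that spread may be technical.

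Promoter sequences show how the lists differ in letters known from cell-cycle genes, and they are a description with no test. Windows of 300 bases (250 before and 50 after the start, RefSeq, build GRCm38.p6) were at hand for 20 of 24 listed genes in each list. They were searched on both strands for E2F-like letters (TTTGGCGC, TTTCGCGC, TTTCCCGC or TTTGCCGC), for the cell cycle homology region (CHR, TTTGAA or TTTAAA) and for CCAAT, which NF-Y binds. E2F-like letters stood in 8 of 20 replication windows (40.0%), 1 of 20 mitosis windows (5.0%, Cdk1) and 2.6% of 27025 windows of all genes. CHR letters stood in 5 replication windows (25.0%), 18 mitosis windows (90.0%) and 30.6% of all windows. CHR and CCAAT together stood in 20.0%, 80.0% and 12.2%. Mcm7 has 2 windows and was counted once. The windows printed here, 5′ to 3′ on the gene's strand with matched letters in capitals, are those of the helicase gene Mcm6 with E2F-like letters and CCAAT, of Cdk1 with all 3 kinds, and of a pair of mitosis genes with CHR and CCAAT. In Mcm6, TTTGGCGC overlaps a match on the other strand (GCGCGAAA) and they share 4 bases.
Mcm6, chr1:128359656-128359955, minus strand: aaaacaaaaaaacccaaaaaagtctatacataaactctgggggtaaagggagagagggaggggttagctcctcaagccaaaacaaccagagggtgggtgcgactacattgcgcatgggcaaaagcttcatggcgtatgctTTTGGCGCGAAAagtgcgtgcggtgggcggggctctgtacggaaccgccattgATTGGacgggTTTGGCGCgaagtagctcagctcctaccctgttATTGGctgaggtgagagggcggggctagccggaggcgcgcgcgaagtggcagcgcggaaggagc
Cdk1, chr10:69352863-69353162, minus strand: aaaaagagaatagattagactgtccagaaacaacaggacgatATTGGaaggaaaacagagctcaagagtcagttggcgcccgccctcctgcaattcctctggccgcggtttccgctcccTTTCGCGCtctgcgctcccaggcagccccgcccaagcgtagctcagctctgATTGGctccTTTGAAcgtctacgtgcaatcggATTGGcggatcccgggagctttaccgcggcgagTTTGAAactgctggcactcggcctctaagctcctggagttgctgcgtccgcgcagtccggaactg
Ccnb2, chr9:70421505-70421804, minus strand: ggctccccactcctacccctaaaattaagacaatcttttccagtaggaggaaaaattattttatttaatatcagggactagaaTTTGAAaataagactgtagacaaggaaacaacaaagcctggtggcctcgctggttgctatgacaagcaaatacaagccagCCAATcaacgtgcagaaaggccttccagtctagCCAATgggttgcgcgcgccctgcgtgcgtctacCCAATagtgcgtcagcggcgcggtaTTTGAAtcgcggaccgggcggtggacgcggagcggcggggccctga
Cdc20, chr4:118437294-118437593, minus strand: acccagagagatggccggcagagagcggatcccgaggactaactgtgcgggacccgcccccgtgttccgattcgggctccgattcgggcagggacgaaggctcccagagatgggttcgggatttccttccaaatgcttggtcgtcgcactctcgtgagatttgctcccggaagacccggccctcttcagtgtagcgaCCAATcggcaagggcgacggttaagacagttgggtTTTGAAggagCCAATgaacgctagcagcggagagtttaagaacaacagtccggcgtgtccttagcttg

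The arrays differed in overall brightness: the 75th percentile of intensity ran from 1115 to 1185 on AOM/DSS arrays and from 393 to 694 on the other arrays, and no spot was saturated. They sit on 3 slides of 4 arrays. Replicates 1 and 2 of both AOM and AOM/DSS share a slide. AOM replicate 3 was hybridised beside all DSS arrays, and AOM/DSS replicate 3 beside all control arrays. Slide is therefore partly confounded with group, and no slide holds AOM beside control. Across all genes (which are not independent replicates) the nearest array to AOM replicate 1 was DSS replicate 2, with Pearson r = 0.978, and control replicate 3 was nearest to DSS replicate 1, with r = 0.970. The keratin Krt8 and the adhesion protein Epcam, which define epithelium, were well above background on every array. Genes of pancreatic acinar cells stood high on the control arrays and DSS replicate 1: the median of 11 such genes, each centred on its mean over arrays, was 0.65 to 7.84 there and -3.08 to -0.97 on the other arrays.

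Replication and mitosis genes were lowest in control epithelium and highest in AOM epithelium or AOM/DSS neoplasms. The 4 groups differed in 19 of 23 replication genes and 24 of 24 mitosis genes, against 52.7% of all genes tested (moderated F test of limma at an adjusted p, by Benjamini-Hochberg, under 0.05 with 3 arrays a group). The mitosis count includes Ttk, which passed the filter on dim probes only through its AOM/DSS arrays. The group mean was highest in AOM for 14 replication genes and in AOM/DSS for 9, whereas for mitosis genes it was highest in AOM for 9, in AOM/DSS for 14 and in control for 1 (Bub1). The mean was lowest in control for 18 replication and 23 mitosis genes. A single array stood at the bottom for most genes: control replicate 1 held the lowest value of 43 of 47 genes, and AOM/DSS replicate 3, on the same slide, held the highest of 30. The count of replication genes was 10 without AOM replicate 2 (36.3% of all genes were called in that fit) and 11 without AOM replicate 3 (42.5%). With slide as a block in the fit the counts were 3 and 8, beside 13.2% of all genes, a share that the replication genes did not exceed.

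**Figure D1:**
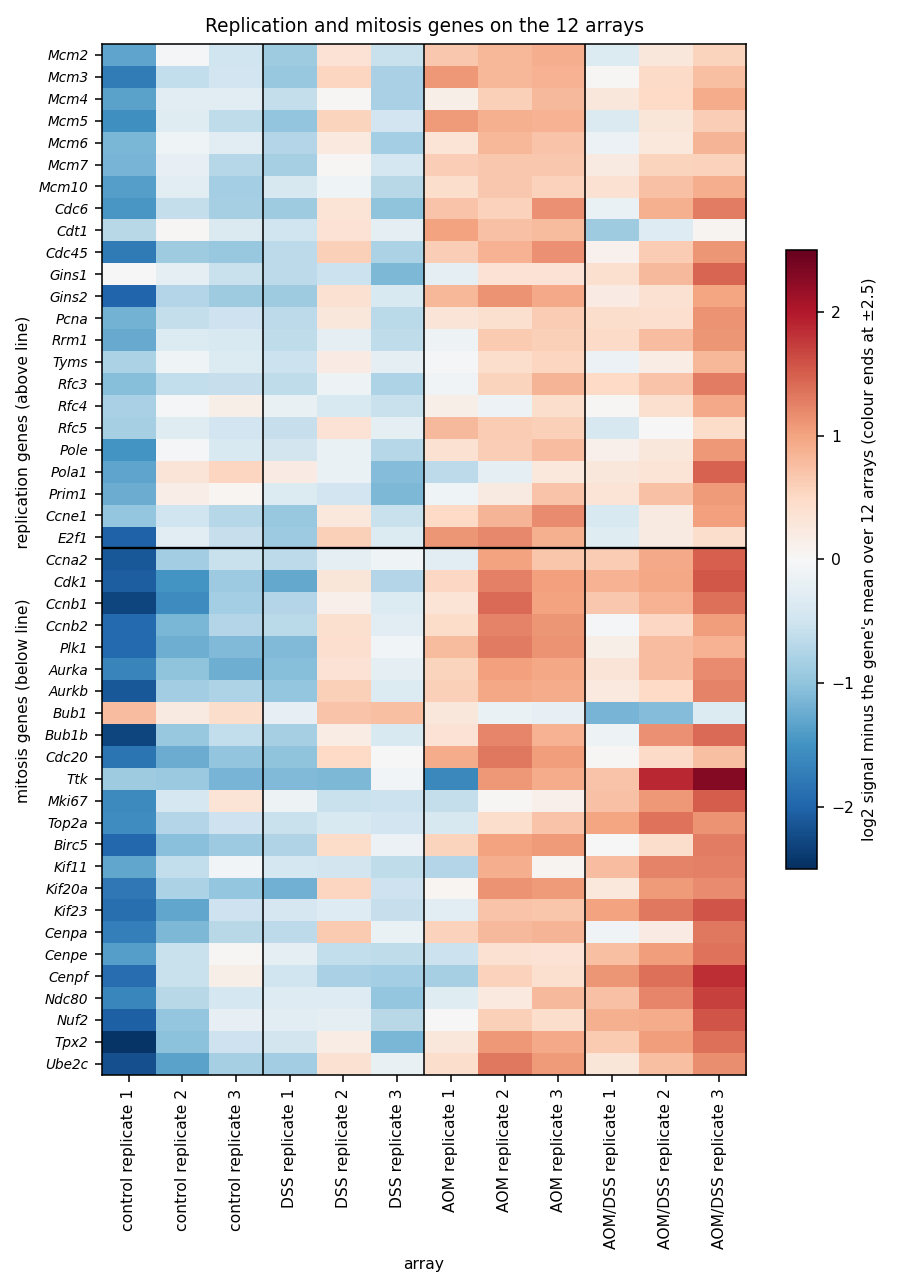
Scaled log2 signal of 23 replication genes (above the line) and 24 mitosis genes (below it) on the 12 arrays, each gene minus its own mean over the arrays, with colours ending at 2.5 log2 units either way. Control arrays are mostly blue and AOM and AOM/DSS arrays mostly red, DSS replicate 2 is redder than the other DSS arrays, and Bub1 runs the other way.

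The median over each list put numbers on this order. With each gene centred on its mean, the replication median was -1.26, -0.29 and -0.49 on control replicates 1 to 3, and -0.65, 0.25 and -0.68 on the DSS arrays. It was 0.43, 0.66 and 0.77 on the AOM arrays and 0.11, 0.39 and 0.96 on the AOM/DSS arrays. All AOM and AOM/DSS arrays thus lay above all control arrays, but DSS replicate 2 overlapped with the AOM/DSS range. The mitosis median was -1.90, -0.96 and -0.65 in control, -0.66, 0.19 and -0.37 in DSS, 0.29, 1.01 and 0.90 in AOM, and 0.64, 0.96 and 1.34 in AOM/DSS. Here the spread between control arrays was wider than the gap between the highest control and the lowest AOM array, and no AOM or AOM/DSS array overlapped with a DSS array.

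**Figure D2:**
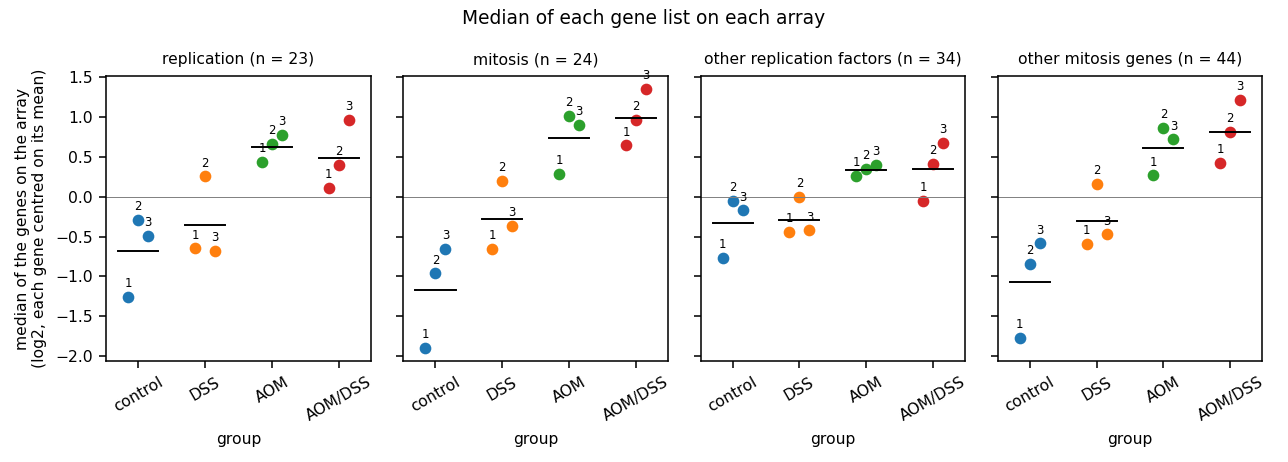
Median scaled log2 signal of each gene list on each array, every gene centred on its mean over 12 arrays, in 4 panels for 23 replication genes, 24 mitosis genes, 34 other replication factors and 44 other mitosis genes. Points are arrays with their replicate number and bars are means of 3 arrays. In each panel control and DSS arrays lie mostly below 0 and AOM arrays above it, and control replicate 1 is the lowest point.

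In AOM/DSS neoplasms 12 of 23 replication genes were higher than in control epithelium and none was lower, and among mitosis genes 23 were higher and 1 (Bub1) lower. Without Ttk, which entered the test only through its neoplasm arrays, 22 of the other 23 were higher. Of all genes tested, 34.7% were called, 17.2% higher and 17.5% lower. The median difference was 1.13 log2 units over the replication genes and 2.08 over the mitosis genes, beside 0.03 over all genes. Leaving out Ttk and Bub1, whose probes are described later, the differences ran from -0.04 for Cdt1 to 2.62 for Cdk1. In 14 replication and 23 mitosis genes (Ttk included) every neoplasm array exceeded every control array, which held for 26.2% of all genes, and the reverse order (Bub1 here) for 26.1%.

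Among origin licensing and helicase genes, 8 of 12 rose. Cdc45, a part of the active helicase, was at -2.60, -2.08 and -1.60 in AOM/DSS and at -4.47, -3.60 and -3.66 in control. The groups did not overlap, and the rise was 1.82 ± 0.41 log2 units (SE), or 3.53-fold (limma adjusted p = 0.00646). Gins2, which joins Cdc45 on the helicase, rose by 1.72 ± 0.40 (limma adjusted p = 0.0075) and Cdc6, the loader of Mcm rings, by 1.62 ± 0.45 (limma adjusted p = 0.0174). The other Cdc6 probe was at 0.926 and did not pass (limma adjusted p = 0.147 in a fit over all probes). Mcm10, Mcm3, Mcm4, Mcm7 and Gins1 rose by 1.51, 1.36, 1.20, 1.14 and 1.16. The ring subunits Mcm2, Mcm5 and Mcm6 were at 0.78 ± 0.39, 1.01 ± 0.43 and 0.83 ± 0.38 and did not pass, and Cdt1, which brings the ring to origins, was at -0.04 ± 0.31.

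The polymerase group followed with 3 of 7 genes called. Pcna, the sliding clamp that tethers polymerases, read 4.29, 4.27 and 4.98 in AOM/DSS and 2.67, 3.25 and 3.34 in control. These ranges lie far apart, and the rise was 1.43 ± 0.32, or 2.69-fold (limma adjusted p = 0.00634). Rfc3, a subunit of the clamp loader, rose by 1.58 ± 0.31, and Pole, the leading strand polymerase, by 1.13 ± 0.38. Without control replicate 1 the rise of Pole was 0.70, and its call was lost in 6 of 12 fits without an array. Rfc4, Rfc5, Pola1 and Prim1 did not pass (0.56 to 1.05 log2 units). For nucleotide supply, Rrm1, the large subunit of ribonucleotide reductase, rose by 1.44 ± 0.31 while Tyms was at 0.69 ± 0.31. The S phase entry genes Ccne1 and E2f1 were at 1.01 ± 0.39 and 1.08 ± 0.47 and neither passed.

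Mitosis genes of every role rose in the neoplasms. Cdk1, the kinase that starts mitosis, read 0.42, 0.51 and 1.10 in AOM/DSS and -2.52, -1.95 and -1.36 in control. All neoplasm arrays were thus above 0 and all control arrays below it, a rise of 2.62 ± 0.42 log2 units or 6.14-fold (limma adjusted p = 0.00125). Its cyclin partners Ccnb1, Ccna2 and Ccnb2 rose by 2.55, 2.21 and 1.78. The kinesin Kif23, needed to finish cell division, rose by 2.52 ± 0.36 (limma adjusted p = 0.000675), and the spindle genes Tpx2, Kif20a and Kif11 by 2.35, 2.02 and 1.74. At the centromere and kinetochore, where spindle fibres attach, Cenpf, Nuf2, Ndc80, Cenpe and Cenpa rose by 2.21, 2.20, 2.14, 1.68 and 1.66. Plk1, Aurka, Aurkb and Bub1b, kinases or checkpoint proteins of mitosis, rose by 2.02, 2.06, 1.91 and 2.09, and Cdc20 and Ube2c, which work with the anaphase-promoting complex, by 1.76 and 2.19. Top2a, Birc5 and Mki67, of chromosome structure and the passenger complex, rose by 2.09, 1.89 and 1.67.

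A pair of mitosis genes needs its probes beside it. Ttk, a checkpoint kinase, was not well above background on any control or DSS array and on only 1 AOM array, and it passed the filter through its AOM/DSS arrays. Its level in AOM/DSS was at least 1.31-fold that of control, which the filter in part fixes, so no test is read from it. Bub1, another checkpoint kinase, fell by 1.34 ± 0.32 on its brightest probe (limma adjusted p = 0.0093), but its other probe rose by 2.12 (limma adjusted p = 0.0169 in a fit over all probes), so the direction of Bub1 is uncertain. Cdc6, Cdc45, E2f1, Aurkb and Ndc80 missed the background criterion on 1 control array each, and Ndc80 also on 1 DSS array. With normexp background correction, an alternative that adds the same intensity to dim and bright arrays, the difference from control turned to -0.07 for Cdc6, -0.25 for Cdc45, -0.11 for Ndc80 and -0.85 for Ttk. The median of all genes moved too, from 0.03 to -0.32, and of these genes only Ttk lay below it. The sign of these dim genes thus depends on the background correction.

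The replication count rested on single arrays more than the mitosis count did. It was 7 without AOM/DSS replicate 3 (26.8% of all genes called) and 8 without control replicate 1 (22.8%), while the mitosis count stayed between 23 and 24 when any array was left out. With slide as a block the comparison rests on AOM/DSS replicate 3 and the control arrays next to it, and 8 replication and 15 mitosis genes were called, all higher, with medians of 1.63 and 2.55, and 11.7% of all genes were called. With normexp background correction 5 and 15 were called, and 14.6% of all genes. Under median scaling, which moves the median of all genes from 0.03 to -0.12, calls over all genes were 2270 higher and 3542 lower, beside 3270 and 3314, and 9 replication and 24 mitosis genes were called.

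AOM epithelium, which was scraped like the control, also stood above control. Of 23 replication genes 18 were higher, as were 18 of 24 mitosis genes, and none was lower, beside 32.4% of all genes called, 14.8% higher and 17.6% lower. The medians were 1.22 and 1.93 log2 units, beside -0.01 over all genes. Every AOM array exceeded every control array for 19 replication and 18 mitosis genes, against 22.5% of all genes (26.6% in the reverse order). AOM/DSS and AOM are set against the same 3 control arrays, so these results share the level of the controls, control replicate 1 included.

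Of the licensing and helicase genes 11 of 12 rose with AOM. Mcm7 read 3.66, 3.72 and 3.71 on the AOM arrays and 1.89, 2.84 and 2.33 on the control arrays. The AOM arrays were close together and well above the spread of control, and the rise was 1.35 ± 0.28 or 2.54-fold (limma adjusted p = 0.0102). Gins2 rose by 2.16 ± 0.40, Cdc45 by 2.07 ± 0.41, Mcm3 by 1.87 ± 0.43 and Mcm5 by 1.76 ± 0.43. Cdc6, Mcm2, Mcm10, Cdt1, Mcm4 and Mcm6 rose by 1.77, 1.42, 1.40, 1.18, 1.15 and 1.14, and Gins1 was at 0.43 ± 0.31. In a fit over all probes the other Gins1 probe rose by 1.24 (limma adjusted p = 0.0403). The other Cdc6 probe was at 0.988 there and did not pass (limma adjusted p = 0.122). Both S phase entry genes were called here: E2f1, a transcription factor of the replication genes, rose by 2.03 ± 0.47 (4.09-fold, limma adjusted p = 0.0139), and Ccne1, the cyclin of S phase entry, by 1.56 ± 0.39. Pcna, Pole, Rfc5, Rfc3 and Rrm1 rose by 1.23, 1.22, 1.21, 1.19 and 1.03, while Tyms, Prim1, Rfc4 and Pola1 were between -0.05 and 0.72 and did not pass.

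The mitosis genes split more widely under AOM. Ccnb1, Plk1, Cdc20, Cdk1 and Ube2c rose by 2.50, 2.50, 2.44, 2.42 and 2.40, the 5 largest rises. Plk1, which acts at centrosomes, kinetochores and the cleavage furrow, read 2.87, 3.38 and 3.20 against 0.12, 0.85 and 0.97 in control. No AOM array came near the control range, and the rise was 5.66-fold (2.50 ± 0.39, limma adjusted p = 0.00506). Ccnb2, Birc5, Aurka, Tpx2, Bub1b, Aurkb, Kif20a and Cenpa followed at 1.92 to 2.21, and Ccna2, Kif23, Nuf2, Top2a and Ndc80 at 1.17 to 1.66. Mki67, the proliferation marker that coats mitotic chromosomes, was at 0.41 ± 0.43 and did not pass (limma adjusted p = 0.475). Nor did Kif11, Cenpf and Cenpe, at 0.69 to 0.82, or Bub1 at -0.51 ± 0.32.

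The AOM counts moved with 3 arrays and with slide. They were 6 replication and 12 mitosis genes without control replicate 1, 7 and 10 without AOM replicate 2, and 9 and 13 without AOM replicate 3, where 12.5%, 10.4% and 18.8% of all genes were called. With slide as a block no member was called, although the medians were 1.87 and 2.42 and only 4 of all genes were called, since AOM and control are then linked only through other groups. Whether slide has a part in the difference between AOM and control was not tested beyond this. With normexp, 9 replication and 8 mitosis genes were called, beside 9.83% of all genes, and the values of Cdc45 and Ndc80 turned to -0.001 and -0.61. The median of all genes was then -0.27. The call of Ndc80 was also lost in 6 of 12 fits without an array.

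**Figure D3:**
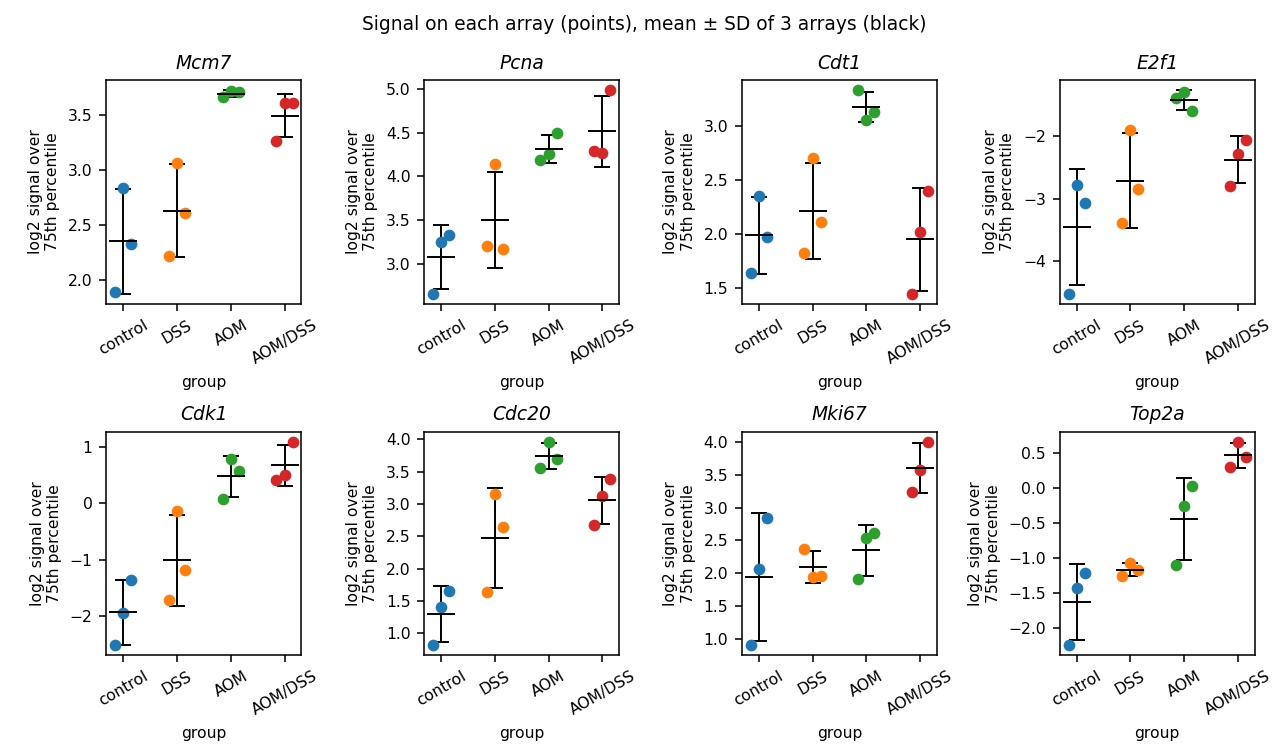
Scaled log2 signal of 8 genes on each array (points) with the mean and SD of 3 arrays (black), by group, each gene on its own axis. Mcm7, Pcna and Cdk1 are high in both AOM and AOM/DSS, Cdt1, E2f1 and Cdc20 have their highest mean in AOM, and Mki67 and Top2a in AOM/DSS.

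AOM/DSS neoplasms and AOM epithelium differed in few members. Mki67 and Top2a were higher in the neoplasms and Cdt1 was lower, 3 of 47 genes, while 37.1% of all genes were called (19.5% higher, 17.7% lower). The median difference was -0.15 over the replication genes and 0.14 over the mitosis genes, with -0.04 over all genes. Under median scaling all genes shifted to -0.36 and the members to -0.47 and -0.18, so the sign of the mitosis median turned, and calls over all genes were 2524 higher and 4969 lower, beside 3689 and 3352.

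Mki67 read 3.24, 3.58 and 4.01 in AOM/DSS and 1.91, 2.53 and 2.62 in AOM. The AOM arrays lie inside the control range of 0.90 to 2.85 and overlap with the DSS range of 1.95 to 2.38, and every neoplasm array lies above all arrays of the other groups. The difference from AOM was 1.25 ± 0.43, or 2.39-fold (limma adjusted p = 0.0433), and 1.30 on the other Mki67 probe (limma adjusted p = 0.0157 in a fit over all probes). Top2a, the topoisomerase that untangles sister chromosomes, read 0.30, 0.66 and 0.44 in AOM/DSS and -1.10, -0.26 and 0.02 in AOM. These groups did not overlap, and AOM replicate 1 was the lowest by far, with a difference of 0.91 ± 0.33 (limma adjusted p = 0.049) that was 0.59 without that array. The other Top2a probe was at 0.74 and did not pass (limma adjusted p = 0.128 in a fit over all probes). Both calls sat at the edge of the threshold and were each lost in 9 of 12 fits that left out an array. With slide as a block neither Mki67 nor Top2a was called (limma adjusted p = 0.145 and 0.0716).

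Cdt1, which licenses origins and is destroyed once S phase starts, ran the other way. It read 1.45, 2.01 and 2.39 in AOM/DSS, 3.33, 3.06 and 3.13 in AOM, 1.64, 2.35 and 1.97 in control, and 1.83, 2.70 and 2.11 in DSS. The AOM arrays stood above all others, and the neoplasm arrays overlapped with control and DSS. Relative to AOM, Cdt1 fell by 1.22 ± 0.31 (limma adjusted p = 0.0145) and was called under 10 of the 11 listed processing alternatives (all but normexp), with slide as a block included, but not without AOM/DSS replicate 1 (-0.97).

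Below the threshold the order of the members was wide. Cenpf, Kif11, Cenpe, Ndc80, Kif23 and Nuf2 were at 0.79 to 1.39 log2 units in AOM/DSS over AOM, and Pola1 and Gins1 at 0.91 ± 0.54 and 0.73 ± 0.31. At the other end E2f1, Bub1, Mcm5, Cdc20, Rfc5 and Mcm2 were at -0.95 to -0.64. None of these passed. All AOM/DSS arrays lay below all AOM arrays for 7 replication and 2 mitosis genes, and above them for 2 and 6, while 30.2% and 29.2% of all genes did so. On the slide that holds 2 arrays of each group, the medians were -0.28 for replication and 0.05 for mitosis genes, and the differences were -1.46 for Cdt1, 1.19 for Mki67 and 1.16 for Top2a.

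**Figure D4:**
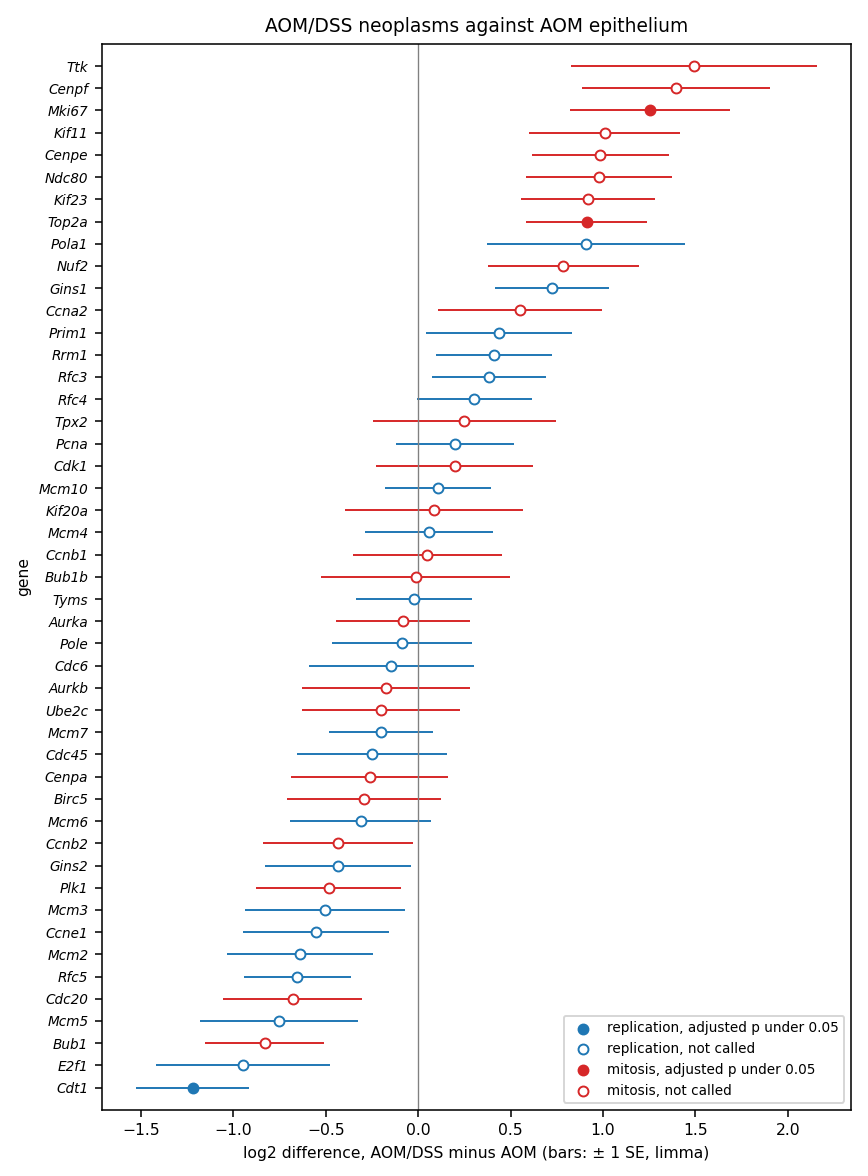
Log2 difference of each of 47 genes between AOM/DSS neoplasms and AOM epithelium (points, with bars of 1 SE from limma), replication genes in blue and mitosis genes in red, filled where the adjusted p is under 0.05. Only Mki67 and Top2a (above 0) and Cdt1 (below 0) are filled, and the genes run from -1.22 for Cdt1 to 1.49 for Ttk, which was well above background on only 1 AOM array.

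DSS epithelium did not pass against control in any member. The count was 0 of 47, beside 0.327% of all genes called, 0.164% higher and 0.164% lower (limma, Benjamini-Hochberg). An unadjusted p under 0.05 was found for 11 members, 2 of 23 replication and 9 of 24 mitosis genes. The replication share was below, and the mitosis share above, the 21.1% of all genes. The medians were 0.25 for replication and 0.86 for mitosis genes, beside -0.02 over all genes, and 42 of 47 differences were above 0. Ccnb1 read -1.64, -0.79 and -1.25 in DSS and -3.21, -2.49 and -1.77 in control, a difference of 1.26 ± 0.40 (limma adjusted p = 0.157). Cdc20 was at 1.18 ± 0.38 (limma adjusted p = 0.157) and, among replication genes, Cdc45 at 0.92 ± 0.41 and Gins2 at 0.90 ± 0.40. Every DSS array exceeded every control array in 1 replication and 4 mitosis genes, against 8.86% of all genes (9.5% in the reverse order). Without DSS replicate 1, the DSS array with high pancreatic acinar genes, 5 mitosis genes were called, beside 16.9% of all genes, and without it and control replicate 3 the count was 10, beside 22.7%.

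AOM and DSS epithelium differed in no member at the threshold either. Only 2 of all genes were called (0.0105%), and 33 of 47 members had an unadjusted p under 0.05, beside 14.8% of all genes. Of the differences 46 of 47 favoured AOM, with medians of 0.98 and 0.96 log2 units beside -0.05 over all genes. All AOM arrays exceeded all DSS arrays in 21 replication and 14 mitosis genes, against 10.7% of all genes (7.8% in the reverse order). Mcm7 was at 1.07 ± 0.28 (limma adjusted p = 0.179), Mcm10 at 0.96 ± 0.29, Cdk1 at 1.50 ± 0.43 and Plk1 at 1.32 ± 0.39. On the slide that holds AOM replicate 3 and the DSS arrays, AOM was above the DSS mean in 23 of 23 replication and 23 of 24 mitosis genes, with medians of 1.15 and 1.21.

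Against DSS epithelium, AOM/DSS neoplasms had 8 of 23 replication genes and 14 of 24 mitosis genes higher, and Bub1 lower, beside 35.9% of all genes called, 17.6% higher and 18.2% lower. Every AOM/DSS array exceeded every DSS array in 11 replication and 13 mitosis genes (23.2% of all genes) and the reverse held for Bub1 (25.7%). Gins1 read 0.04, 0.46 and 1.11 in AOM/DSS and -0.999, -0.894 and -1.48 in DSS. The groups did not overlap, and the rise was 1.66 ± 0.31 or 3.16-fold (limma adjusted p = 0.0037). Prim1, the primase subunit that makes primers, Rfc3 and Rrm1 rose by 1.36, 1.34 and 1.29, and Mcm10, Mcm4, Pcna and Mcm7 by 0.86 to 1.07. Cdc6 was at 1.18 ± 0.45 and did not pass.

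Of the mitosis genes, Cenpf rose by 2.16 ± 0.51 over DSS, Ndc80 by 1.76 ± 0.40 and Kif23 by 1.74 ± 0.36. Ttk, again counted through its neoplasm arrays alone, was at least 1.46-fold higher, but with normexp its difference turned to -0.56 (median of all genes -0.28). Without Ttk, 13 of the other 23 mitosis genes were higher. Cdk1, Top2a, Kif11, Cenpe, Nuf2, Mki67, Tpx2, Ccna2, Ccnb1 and Aurka rose by 1.08 to 1.69. Plk1, Cdc20, Birc5, Ccnb2, Cenpa, Ube2c, Aurkb, Bub1b and Kif20a were at 0.53 to 1.23 and did not pass. The counts of replication and mitosis genes were 3 and 6 without DSS replicate 3 (17.5% of all genes called), 3 and 8 when AOM/DSS replicate 3 was dropped (25.6%), 3 and 9 when AOM/DSS replicate 2 was (23.2%), and 5 replication genes without DSS replicate 1 (46.8%). The replication counts were then below these shares, which count both directions. Genes called higher alone were fewer, 1566 of 19085, 2373 of 19690, 2074 of 19102 and 4589 of 19010 in these fits. Only without DSS replicate 1 did the replication count lie below that share too. With slide as a block they were 0 and 0, where 2.31% of all genes were called, and with normexp 5 and 8. Under median scaling (all genes shifted from 0.04 to -0.18, 2222 higher and 4091 lower beside 3343 and 3460) the replication count was 3.

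If AOM and DSS acted additively on the log2 scale, AOM/DSS minus AOM minus DSS plus control would be 0. This departure was called for 4 members, beside 35.3% of all genes (19.6% above the sum and 15.7% below it). Cdc20 departed by -1.86 ± 0.53 (limma adjusted p = 0.0247), Plk1 by -1.66 ± 0.55 (limma adjusted p = 0.0398), Cdt1 by -1.44 ± 0.43 (limma adjusted p = 0.0289) and Gins1 by 1.23 ± 0.44 (limma adjusted p = 0.05). The other Gins1 probe departed by 0.775 and did not pass (limma adjusted p = 0.302 in a fit over all probes). Cdc20 illustrates the arithmetic: its means were 1.30 ± 0.43 (SD, n = 3) in control, 3.74 ± 0.20 in AOM, 2.47 ± 0.77 in DSS and 3.06 ± 0.36 in AOM/DSS, and the difference between AOM/DSS and AOM did not pass on its own (-0.68 ± 0.38). The AOM dose differed between the groups, and the medians were -0.38 and -0.71 beside -0.10 over all genes. The calls depended on single arrays: the counts for the replication and mitosis lists ran from 0 to 6 and from 0 to 8 over the fits without an array, and were highest without DSS replicate 1, where 46.1% of all genes were called. They were 0 and 0 with slide as a block. Under median scaling the median departure of all genes moved from -0.10 to -0.50, with 2711 genes above the sum and 4467 below it, beside 3712 and 2981.

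Other genes of the same processes, from lists of general knowledge, gave a similar picture with more exceptions. Of 34 other replication factors, 11 were higher and 1 lower in AOM/DSS than in control (17.2% and 17.5% of all genes), and 14 were higher and 1 lower in AOM than in control (14.8% and 17.6%), with medians of 0.76 and 0.51. For Orc1, a subunit of the origin recognition complex, the rise was at least 1.88-fold in AOM/DSS and at least 2.31-fold in AOM. For Pola2, a partner of the primase, these bounds were 2.24-fold and 2.36-fold, and the thymidine kinase Tk1 rose by 1.51 ± 0.41 and 2.06 ± 0.41. Orc1 and Pola2 were not well above background on any control array and passed the filter through other groups. The filter thus in part fixes their bounds and their place in these counts. Against AOM, 3 origin recognition subunits were higher in the neoplasms: Orc2 by 1.36 ± 0.27, Orc4 by 1.27 ± 0.24 and Orc5 by 0.91 ± 0.26, and the polymerase subunit Pold1 was lower (-1.39 ± 0.35). No other gene of this list was called there, and 19.5% of all genes were higher and 17.7% lower, both larger shares.

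Of 44 other mitosis genes, 38 were higher in AOM/DSS than in control (17.2% of all genes) and 33 in AOM than in control (14.8%). None was lower, and the medians were 1.92 and 1.67. Kif18b, Anln and Cdc25c were not well above background on any control array. They passed the filter through other groups, which in part fixes their place in these counts. Mad2l1, a checkpoint protein, rose by 3.01 ± 0.53 in AOM/DSS, and the kinesin Kif18b was at least 3.03-fold and 4.31-fold higher in AOM/DSS and AOM. Foxm1 read -0.44, -0.12 and 0.02 in AOM/DSS, 0.07, 0.52 and 0.12 in AOM and -3.03, -1.48 and -1.94 in control. It stood highest in AOM by a small margin, rising by 2.39 ± 0.39 there and by 1.97 ± 0.39 in AOM/DSS (limma adjusted p = 0.00559 and 0.00364). Mybl2 rose by 1.68 ± 0.30 in AOM and by 0.99 ± 0.30 in AOM/DSS. Against AOM, 4 were higher in the neoplasms and 1 lower, smaller shares than the 19.5% and 17.7% of all genes. Aspm, a spindle pole protein, was among the higher at 1.51 ± 0.36.

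Regulators of G1 phase were called about as often as all genes in AOM/DSS against control. Of 20 G1 cyclins, kinases, E2F and pocket protein genes, 4 were higher and 4 lower there, beside 17.2% and 17.5% of all genes, with a median of 0.19. In AOM against control 3 were higher and 1 lower, beside 14.8% and 17.6% of all genes, with a median of -0.11. Cdk4, the kinase of the D cyclins, read 2.77, 2.93 and 2.94 in AOM/DSS, 1.55, 2.44 and 2.42 in AOM and -0.49, 0.42 and 0.57 in control. Both treated groups lay above all control arrays, with rises of 2.71 ± 0.39 (limma adjusted p = 0.00064) and 1.97 ± 0.39 (limma adjusted p = 0.00858). Rb1, the retinoblastoma protein, fell by 1.04 ± 0.23 and 1.22 ± 0.23, and E2f4, which binds pocket proteins in resting cells, by 1.14 ± 0.36 in AOM/DSS, while in AOM it was at -0.64 ± 0.36. Ccnd1 was not analysed here.

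Among 7 inhibitors of these kinases, 2 were higher and 3 lower in AOM/DSS than in control, beside 17.2% and 17.5% of all genes. Cdkn1a (p21) read 3.36, 3.21 and 2.54 in AOM/DSS, 4.30, 4.44 and 4.39 in AOM, 5.47, 4.29 and 3.52 in control and 3.75, 4.22 and 4.50 in DSS. The neoplasm arrays were the lowest, and the control arrays were so far apart that they spanned all AOM and DSS arrays. Cdkn1a fell by 1.39 ± 0.43 against control and by 1.34 ± 0.43 against AOM (limma adjusted p = 0.029 and 0.0334), and both calls were lost under quantile normalization. Without control replicate 1 the difference from control was -0.87, and the calls were lost in 4 and 6 of 12 fits without an array. Cdkn1b (p27) fell by 1.27 ± 0.41 and Cdkn2b by 1.89 ± 0.30 against control. Cdkn2a, which encodes p16 and Arf, was not well above background in control, and its rise was at least 2.84-fold in AOM/DSS and at least 2.53-fold in AOM. It passed the filter through other groups, which in part fixes this rise and its place among the higher genes.

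Markers of other cell types also differed between the groups. Against control, 17.2% of all genes were higher and 17.5% lower in AOM/DSS, 14.8% and 17.6% in AOM, and 0.164% each way in DSS. Of 10 epithelial markers 8 fell in AOM/DSS against control and 0 were called in AOM, with list medians per array of -1.01 to -0.80 in AOM/DSS, 0.08 to 0.28 in AOM, 0.10 to 0.92 in DSS and -0.17 to 0.73 in control. Colonocyte markers fell in 8 of 10 in AOM/DSS and 4 of 10 in AOM, and crypt base markers rose in 6 of 9 and 2 of 9. Myeloid markers rose in 5 of 8 in AOM/DSS and 6 of 8 in AOM, with medians of 0.49 to 1.16 and 0.58 to 0.97 beside -0.05 to 1.28 in DSS and -3.12 to -0.18 in control. In DSS 0 of 8 were called against control, but the median difference of 2.24 was as large as the 2.21 of AOM/DSS. The myeloid marker Csf3r was not well above background on any control array and passed the filter through other groups. The filter thus in part fixes its place among the myeloid markers that rose in AOM/DSS and AOM. Fibroblast markers rose in 5 of 7 and 4 of 7. Against control, 0 of 6 T cell and 0 of 7 smooth muscle markers were called in AOM/DSS, and 0 of 6 and 1 of 7 in AOM. B and plasma cell medians were -3.46 to -2.26 in AOM/DSS, -0.82 to 2.86 in AOM, 1.55 to 2.27 in DSS and -1.54 to 0.81 in control. The part of these cell types in the levels of replication and mitosis genes was not tested.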

How the data were processed

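Total RNA was measured on one-colour (Cy3) Agilent mouse arrays, 12 arrays in 4 groups of 3, grouped by the labels. The deposited scanner files hold spot intensity from version 10.7.3.1 of Agilent Feature Extraction per the file headers (10.7 per the submitters' processing notes), already background-subtracted. The deposited series matrix holds the authors' log2 values; its sorted columns differ by at most 0.000945 and all have a median of 6.17, which is what quantile normalization gives, and no source used here names the software. It was used only as an alternative.

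Control spots and outlier flags were left out (141 probe values), spots of a probe were averaged, and log2 of processed intensity was scaled to each array's 75th percentile. A probe was kept where some group had it well above background on each of its 3 arrays, and the brightest probe stood for each gene (18959 genes, of which 13514 have a symbol). Probes were named through RefSeq accessions; the array design names build mm9 and the promoter windows GRCm38.p6, so no position on the array was used. limma 3.58.1 in R 4.3.3 (data.table, version 1.17.8) fitted all 4 groups together, with 7 contrasts and an F test, and Benjamini-Hochberg adjustment over all genes; "called" means an adjusted p under 0.05. Data were simulated for AOM against control (18899 genes) with only 100 genes changed by 1 log2 unit and 100 by 2. Of these 9 and 59 were recovered, and 1 unchanged gene was called. In the measured data 32.4% of all genes were called in that comparison, a far larger share. The adjustment therefore acts differently there, and the recovery rates do not carry over to these data. A fold written "at least" sets the bright group against the lowest signal that counts as well above background on the dim arrays. All 48 listed genes could be named. Of each other list, the 3 called genes with the largest difference in a comparison could be, with Cdkn1a, Cdkn1b, Foxm1, Mybl2 and E2f4 throughout. Orc5, Rb1 and, for AOM, Pola2 were chosen after their values were seen. The number of arrays limits the precision. The members and lists were chosen with earlier results of these data known. Expression of Rrm2 and Ccnd1 was not analysed here (the Rrm2 promoter window was), and 1 result of another list is not reported here. Alternatives were other background corrections, scalings, filters, probe rules, slide and replicate blocks, and leaving out arrays.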

Additional observations from a re-analysis of the deposited data

Results flagged for a closer look

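For 4 of the 47 genes the AOM/DSS level departed from the sum of the AOM and DSS effects, tested as an interaction on the log2 scale (limma, Benjamini-Hochberg adjusted over all genes). The departure was -1.86 for Cdc20, -1.66 for Plk1, -1.44 for Cdt1 and 1.23 for Gins1 (0.775 on the other Gins1 probe, which did not pass). It passed for 35.3% of all genes, so 4 of 47 is a smaller share than the background. The AOM dose and the way tissue was collected differ between the groups, and their part in the departure was not tested.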

How the results depend on the processing

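Counts are given as replication and mitosis genes called. With normexp they were 5 and 15 for AOM/DSS against control (14.6% of all genes called) and 9 and 8 for AOM against control (9.83%). AOM/DSS against AOM gave 0 and 0 (6.66%), and AOM/DSS against DSS gave 5 and 8 (10%). The departure gave 0 and 0 (0.385%), and any difference 10 and 12 (13%). With normexp 7 single values also reversed. These were Cdc6, AOM/DSS against control (-0.065), Cdc45, AOM/DSS against control (-0.245), Ttk, AOM/DSS against control (-0.852), Ndc80, AOM/DSS against control (-0.114), Cdc45, AOM against control (-0.001), Ndc80, AOM against control (-0.608), and Ttk, AOM/DSS against DSS (-0.564). The normexp median of all genes was -0.322 for AOM/DSS against control, -0.27 for AOM against control and -0.279 for AOM/DSS against DSS. The mean of all probes turned Bub1, AOM/DSS against control, to 0.389 and Bub1, AOM/DSS against DSS, to 0.360. With slide as a fixed block, 15 mitosis genes were called in AOM/DSS against control (11.7% of all genes), and 0 and 0 in AOM against control (0.0211%). There were 0 mitosis genes in AOM/DSS against AOM (14.9%), and 0 and 0 against DSS (2.31%) and in the departure (0.0105%). Any difference gave 3 and 8 (13.2%). As a random block (correlation -0.158) slide gave 6 mitosis genes in DSS against control, where 13.2% of all genes were called. It gave 1 mitosis gene in AOM/DSS against AOM (36.8%), and 5 and 5 in the departure (51.4%).

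Median scaling gave 2 replication genes and 1 mitosis gene in AOM/DSS against AOM, where 39.5% of all genes were called. It gave 3 replication genes against DSS (33.3%) and 4 mitosis genes in the departure (37.9%). Quantile normalization and the authors' values each gave 4 mitosis genes in AOM/DSS against AOM (34.3% and 34.1% of all genes), and 0 and 1 in the departure (33.1% and 33%). Without a filter these were 0 (22.3%), and 1 and 1 (17.5%), and with a filter on all 12 arrays the former was 4 (38.9%). The mean of probes (35.9% of all genes called), and genes with a symbol only (29.9%), each left 1 replication gene in the departure. Where not shown by the construction of an alternative, the cause was not tested.

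Over the fits that left out 1 array, the lowest and highest counts were 7 to 13 and 23 to 24 for AOM/DSS against control, 6 to 18 and 10 to 20 for AOM against control, 0 to 0 and 0 to 5 for DSS against control, 0 to 1 and 0 to 5 for AOM/DSS against AOM, 3 to 11 and 6 to 15 for AOM/DSS against DSS, 0 to 0 and 0 to 0 for AOM against DSS, 0 to 6 and 0 to 8 for the departure, and 10 to 19 and 19 to 24 for any difference. Without control replicate 3 and DSS replicate 1 together, 10 mitosis genes were called in DSS against control, beside 22.7% of all genes. There were 6 in AOM/DSS against AOM (45.1%), and 5 and 9 in the departure (46.5%). Another fit left out AOM replicate 1 and DSS replicate 2 together, a choice made after seeing the data. In it 0 mitosis genes were called in AOM/DSS against AOM (23.4% of all genes), and 1 in AOM against DSS (2.45%). The departure gave 0 and 0 (12.8%).

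Whether the replicate numbers pair the arrays could not be settled with 3 arrays a group. Deviations of same-numbered arrays correlated at -0.270 to 0.245 (median 0.084). For differently numbered arrays the range was -0.256 to 0.380 (median -0.077), and 4 of 12 arrays correlated best with their own number. The replicate block gave 14 and 24 genes in AOM/DSS against control (32.5% of all genes called) and 19 and 18 in AOM against control (31.7%). DSS against control gave 0 and 0 (0.211%), as did AOM against DSS (0%). AOM/DSS against AOM gave 1 and 6 (35.6%), and AOM/DSS against DSS gave 9 and 19 (34.3%). The departure gave 3 and 7 (31.9%), and any difference 20 and 24 (49.1%). Signal over background limits Ttk, Ndc80, Cdc6, Cdc45, E2f1 and Aurkb.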
